A study of Mus musculus with 116 samples.

Results

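Among the joins that the Jk1 coding end made to Vk gene segments in mouse pro-B cells, 69242 were in the orientation opposite to the one that wild-type cells use at the same segment. These opposite joins were chosen from 42 junction lists by a rule on the deposited positions. Each join was assigned to the Igkv segment within 100 bp (GRCm38 RefSeq), and the usual orientation of a segment was the majority strand over all wild-type joins, for the 123 segments with 20 or more of them. Members are the joins on the other strand, out of 1373680 joins at those segments, 1374899 rows in the 42 lists and 2482573 rows in all lists of the series. They lay in 40 of the 42 libraries and at 121 of the 123 segments. The wild-type strands chose the members, so the share of opposite joins in wild type is given as a description without a test. The wild-type majority was between 90.2% and 100% (median 99.8%), and the weakest was Igkv1-35 with 46 joins against 5. The segments nearest the limit on wild-type joins were Igkv1-115 with 25 and Igkv2-105 with 32 on the inside, and Igkv3-12-1 with 18 on the outside.

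The antibody kappa light chain locus is assembled by the RAG recombinase, which cuts between a gene segment and its recombination signal sequence, a conserved heptamer and nonamer held apart by a spacer. Each cut leaves a coding end on the segment and a signal end on the heptamer, and coding ends are normally joined to coding ends and signal ends to signal ends by non-homologous end joining. Ku70 is a subunit of the Ku ring that binds broken ends, and Lig4 (ligase IV) seals them. A coding end joined to the signal end of the partner segment is known as a hybrid joint. Vk segments lie in both transcriptional orientations, so that the usual join deletes the intervening DNA for some and inverts it for others.

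All libraries came from pro-B cells transformed with the v-Abl kinase and carrying an Emu-Bcl2 transgene, which keeps arrested cells alive. STI-571, which blocks v-Abl, was given at 3 µM over 96 h to hold the cells in G1, where RAG is active, and no nuclease was added. The bait was the Jk1 coding end, and the method reads from it into the joined sequence, the prey. The 14 groups had 3 replicate libraries each. WT cells were clones A and B, Ku70-/- cells clones A1 and B1, and Lig4-/- cells clones A1 (with a second set of the same clone), B1 and C. Cells lacking both genes were clones A1_1 and C1, each also with Ku70 added back (+Ku70), and Lig4 was added back (+Lig4) to Lig4-/- clones A1 and C. Clones that share a first letter were taken as a lineage, and how they were derived is not stated. The genotypes are taken from the labels, since gene expression was not analysed. Each group is a single clone, and the labels do not say whether replicates were separate cultures, so p-values measure the spread between these libraries.

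Depth differed by genotype. Joins at the 123 segments ran from 291157 to 305813 per library in WT B and from 47125 to 53066 in WT A. They ran from 3056 to 60507 in Ku70-/- libraries and from 1839 to 7191 without both genes. The +Ku70 libraries held 46 to 612, the Lig4-/- libraries 3 to 74 and the +Lig4 libraries 10573 to 35054. Libraries came from 12 sequencing runs by their read names, and no read name occurred in more than 1 library. WT A replicate 2 stood apart, with 156 opposite joins of only 26 distinct kinds (16.7%) against 91.8% distinct in replicate 1 and 48.2% in replicate 3. Rows are reads, so copies of a join are counted in the main values.

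The sequences that carry the finding are the joined ends themselves. All were read from the deposited reads, 5′ to 3′, with mm10 positions. The last 30 bases of the bait up to the Jk1 coding end lie at chr6:70722562-70722591, read on the minus strand. They were found as printed in 96.9% of the wild-type reads that ended there. By the bait alignment, Jk1's own signal heptamer, in capitals, follows directly at chr6:70722555-70722561. Its letters come from 467 wild-type opposite joins whose bait alignment ran 7 bp past the coding end, and they were not checked against the genome.
Jk1 coding end: tccagcttggtgcctccaccgaacgtccac
Jk1 signal heptamer, read outward: CACAGTG
The 6 segments shown next are those with the largest mean share of the opposite joins in Ku70-/- libraries, in falling order. The usual join of Igkv1-135, the last of them, is deletional, and that of the other 5 is inversional. Each run gives 15 bases on the V side, the heptamer in capitals, the spacer, the nonamer in capitals and 6 flanking bases. The usual join ends in the lower-case bases on the left, and an opposite join reads rightward into the signal sequence.
Igkv6-32, chr6:70073990-70074038, minus strand: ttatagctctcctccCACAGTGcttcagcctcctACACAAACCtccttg
Igkv12-44, chr6:69814597-69814645, minus strand: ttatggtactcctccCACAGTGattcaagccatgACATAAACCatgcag
Igkv8-30, chr6:70117027-70117075, minus strand: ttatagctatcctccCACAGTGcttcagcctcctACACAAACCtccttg
Igkv4-81, chr6:68990724-68990772, minus strand: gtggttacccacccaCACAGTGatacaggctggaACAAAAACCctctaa
Igkv4-50, chr6:69700733-69700781, minus strand: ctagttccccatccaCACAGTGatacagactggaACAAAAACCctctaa
Igkv1-135, chr6:67610494-67610542, plus strand: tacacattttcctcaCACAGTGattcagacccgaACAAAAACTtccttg
All 6 carried the heptamer CACAGTG, and the nonamer was ACAAAAACC in Igkv4-81 and Igkv4-50 and had other letters in the remaining 4. A signal sequence was found in this way beside 101 of the 123 segments, 76 with that exact heptamer, 36 with that exact nonamer and 100 with a spacer of 12 bp. Its heptamer began 0 to 6 bp (median 3 bp) beyond the usual joining position, and 99.4% of opposite joins lay at these 101 segments. In 119 of the 123 segments the usual position was within 10 bp of the annotated 3′ end of the V segment, so the signal sequences lie just outside the annotated segments.

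Recurrent opposite joins at the signal end follow, each with 24 bait bases (any overlap included) before the prey. The most frequent opposite join in WT is not among them, since it does not lie at a signal end. It was read 50 times in 5 WT libraries (29, 1, 11, 4 and 5 times in WT A replicates 2 and 3 and WT B replicates 1 to 3), at an offset of -164 bp inside Igkv4-57-1, with 13 bp of Jk1 lost and a 9-bp overlap. In the 4 joins from WT and Ku70-/- libraries, capitals mark the bases that the prey alignment places in the heptamer and nonamer.
WT, Igkv4-51: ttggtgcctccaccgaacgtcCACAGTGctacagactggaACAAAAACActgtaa
WT, Igkv1-135: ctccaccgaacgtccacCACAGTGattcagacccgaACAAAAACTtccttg
Ku70-/-, Igkv8-16: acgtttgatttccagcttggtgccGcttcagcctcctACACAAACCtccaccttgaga
Ku70-/-, Igkv6-32: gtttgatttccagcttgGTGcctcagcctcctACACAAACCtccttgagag
In both wild-type joins the whole heptamer was present. By its alignments, the Igkv4-51 join (19 reads in 5 libraries) began at the first heptamer base and shared 3 bp with the Jk1 end. These 3 bases occur once in the read and count to both ends, so either end may have lost them. The Igkv1-135 join (18 reads in 4 libraries) joined the intact Jk1 coding end to the intact heptamer. Its bait alignment ran on over the 7 heptamer bases, which by that alignment read alike beside Jk1 and beside the Vk segment. The Ku70-/- joins had lost bases on both sides. At Igkv8-16 (46 reads in all 6 libraries) 6 bp of signal end and 16 bp of Jk1 were gone, with no shared base. At Igkv6-32 (84 reads in 5 libraries) 4 bp and 14 bp were gone, with a 7-bp overlap of the alignments that counts to both ends. Overlapping alignments can hold mismatches, and the overlap in this join is not exact against the Igkv6-32 letters printed above. The heptamer capitals of this join lie in that overlap and also belong to the bait. Its 4-bp loss is therefore that of the alignment, and no heptamer base need be left.

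Opposite joins were rare in WT and common without Ku70. They made up 0.208%, 0.299% and 0.360% of Vk joins in WT A replicates 1 to 3, and 0.298%, 0.282% and 0.283% in WT B. In Ku70-/- A1 they made up 36.4%, 25.3% and 29.4%, and in Ku70-/- B1 29.4%, 29.9% and 30.5%. The means were 0.289% ± 0.0765 and 0.288% ± 0.00889 in WT A and WT B, against 30.3% ± 5.59 and 29.9% ± 0.545 in Ku70-/- A1 and B1 (SD, n = 3 each). No Ku70-/- library overlapped a WT library. Exact (Clopper-Pearson) 95% intervals covered 0.169% to 0.415% over the WT libraries and 24.2% to 38.1% over the Ku70-/- libraries, for counting error only. Scaled to the raw reads that the labels give for each set, opposite joins numbered 88.7 ± 28.1 and 142 ± 3.85 per 100000 reads in WT A and WT B, and 877 ± 225 and 2833 ± 336 in Ku70-/- A1 and B1. With each distinct join counted once the means were 0.693% in WT A and 2.19% in WT B. With joins limited to 20 bp from a segment the mean in Ku70-/- A1 was 19.2%.

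**Figure D1:**
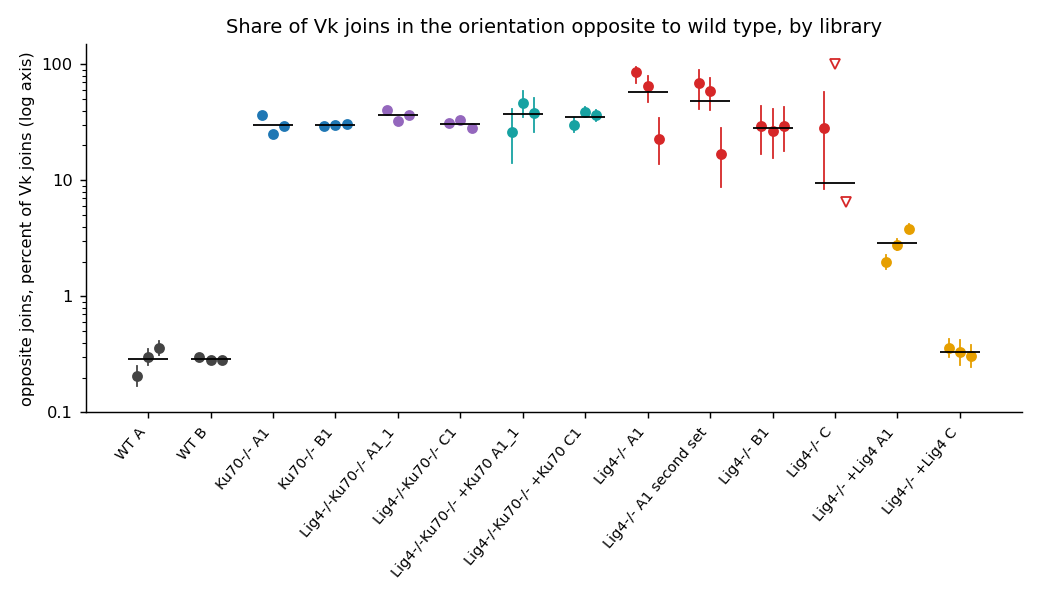
Percent of Vk joins in the opposite orientation (log axis) for each of the 42 libraries, by group, with exact 95% counting intervals and the group mean as a black line; open triangles mark the upper limit that a count of 0 allows in 2 Lig4-/- C libraries. WT libraries lie between 0.208% and 0.360% and Ku70-/- libraries between 25.3% and 36.4%.

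Cells lacking both Lig4 and Ku70 had shares between 28.1% and 40.2%. The values were 40.2%, 32.4% and 36.3% in Lig4-/-Ku70-/- A1_1 and 31.3%, 33.4% and 28.1% in C1. In lineage A the mean was 5.95 percentage points higher than in Ku70-/- A1, the groups overlapped, and the exact permutation test gave p = 0.3 (adjusted p = 0.34 over 17 tests; the smallest p that 3 against 3 libraries allow is 0.1). Within the 3 sequencing runs that both groups shared, the difference was 3.83 to 7.07 points. It was 3.44 points without Ku70-/- A1 replicate 2 and 8.96 points without replicate 1. The test could not pass the threshold, so it does not show that the shares are alike. Adding Ku70 back gave 26.1%, 46.7% and 38.3% in A1_1 and 30.3%, 39.2% and 36.8% in C1. These shares were a mean of 2.62 points above those of the cells without it over both lineages, higher in the mean of each, with overlap in both (exact permutation p = 0.475, adjusted p = 0.475). Within shared runs the difference ranged from -14.1 to 14.3 points in lineage A and from -0.996 to 7.24 in lineage C. The size of this difference was not settled by these libraries: it was 0.206 points without +Ku70 A1_1 replicate 2 and 5.35 points without replicate 1, and 0.332 points with each distinct join counted once. The +Ku70 A1_1 values rest on 46 to 75 joins a library. Opposite joins per 100000 reads were 667 and 474 in A1_1 and C1 without Ku70, and 13.96 and 51.9 with it added back.

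In Lig4-/- cells few joins formed at all. Opposite joins were 30 of 35, 24 of 37 and 17 of 74 in clone A1, which is 85.7%, 64.9% and 23.0%. The second set of that clone gave 68.8%, 59.4% and 16.9% of 16, 32 and 65 joins. Clone B1 gave 29.2%, 26.9% and 29.3% of 48, 52 and 58 joins. Clone C gave 4 of 14 joins, 0 of 3 and 0 of 46, and a count of 0 of 46 allows a share of up to 6.52% by the limit of 3 counts, and 7.71% by the exact 95% interval. In clone A1 and in its second set, replicate 3 lay below the counting intervals of the other replicates, and 43.3% of the opposite joins of A1 replicate 1 were reads of a single join. With Lig4 added back the share was 1.98%, 2.80% and 3.85% in clone A1 and 0.359%, 0.330% and 0.309% in clone C. The clone C values lay within the range of the WT libraries and every clone A1 value lay above it. The difference between these 2 clones was not tested.

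The Vk end of an opposite join was placed by the number of bases lost from its signal end, with 0 for a join at the first base of the heptamer and 28 for the loss of heptamer, spacer and nonamer. In WT the median loss was 0, 0 and 1 bp in the A libraries and 0 bp in each B library. In Ku70-/- it was 16, 16 and 18 bp in A1 and 12 bp in each B1 library. The whole heptamer was kept in 64.3%, 60.9% and 48.7% of opposite joins in WT A and in 53.1%, 53.5% and 53.3% in WT B. This count rests on the prey alignment, so heptamer bases that also aligned to the bait count as kept, and the shares are upper limits. Overlaps differed in frequency between WT and Ku70-/- (below), and their effect on the comparison was not tested. The count also includes joins inside the V segment, which were 26.3% of the opposite joins in WT A replicate 2 at over 10 bp from the heptamer, and 2.04% to 4.302% in the other WT libraries. Joins from 10 bp on the coding side up to the first heptamer base alone made up 62.2%, 34.6% and 46.5% in WT A and 48.8%, 49.9% and 49.2% in WT B. The whole heptamer was kept in 4.52%, 4.42% and 4.402% in Ku70-/- A1 and in 6.31%, 6.47% and 6.69% in B1. No Ku70-/- library overlapped a WT library, and the share fell by 50.2 percentage points over both lineages (exact permutation p = 0.005, the smallest that 400 relabellings allow, adjusted p = 0.02125). The comparison also held within sequencing runs, with differences of -56.5 and -44.3 points in the 2 runs shared in lineage A, and lineage B lay in a single run. Counting only joins up to 10 bp on the coding side, it was -43.2 points (exact permutation p = 0.005).

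The positions were not spread evenly along the signal sequence. In WT B the most frequent losses were 0 bp (26.98% ± 0.547), a join 1 bp on the coding side of the heptamer (16.02% ± 1.25) and 2 bp (14.8% ± 1.11) (SD, n = 3). In Ku70-/- B1 they were 10 bp (8.61% ± 0.298), 6 bp (7.92% ± 0.300) and 2 bp (5.49% ± 0.354), with a further peak at 26 bp (4.67% ± 0.113). In Ku70-/- A1 the leading positions were also in the heptamer, spacer and nonamer, at 7.74% ± 1.30 for 6 bp, 6.16% ± 1.17 for 26 bp and 5.92% ± 0.961 for 10 bp. A join at 6 bp keeps only the last base of the heptamer, a join at 10 bp begins inside the spacer, and with a 12-bp spacer a join at 26 bp begins near the end of the nonamer. Lig4-/-Ku70-/- libraries led with 10 bp in A1_1 (7.53% ± 1.12) and 6 bp in C1 (9.36% ± 1.04). The heptamer was kept in 5.39% ± 1.50 and 5.30% ± 1.05 of their opposite joins, and the difference of 0.937 points from Ku70-/- A1 in lineage A had an exact permutation p of 0.4 (adjusted p = 0.425).

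**Figure D2:**
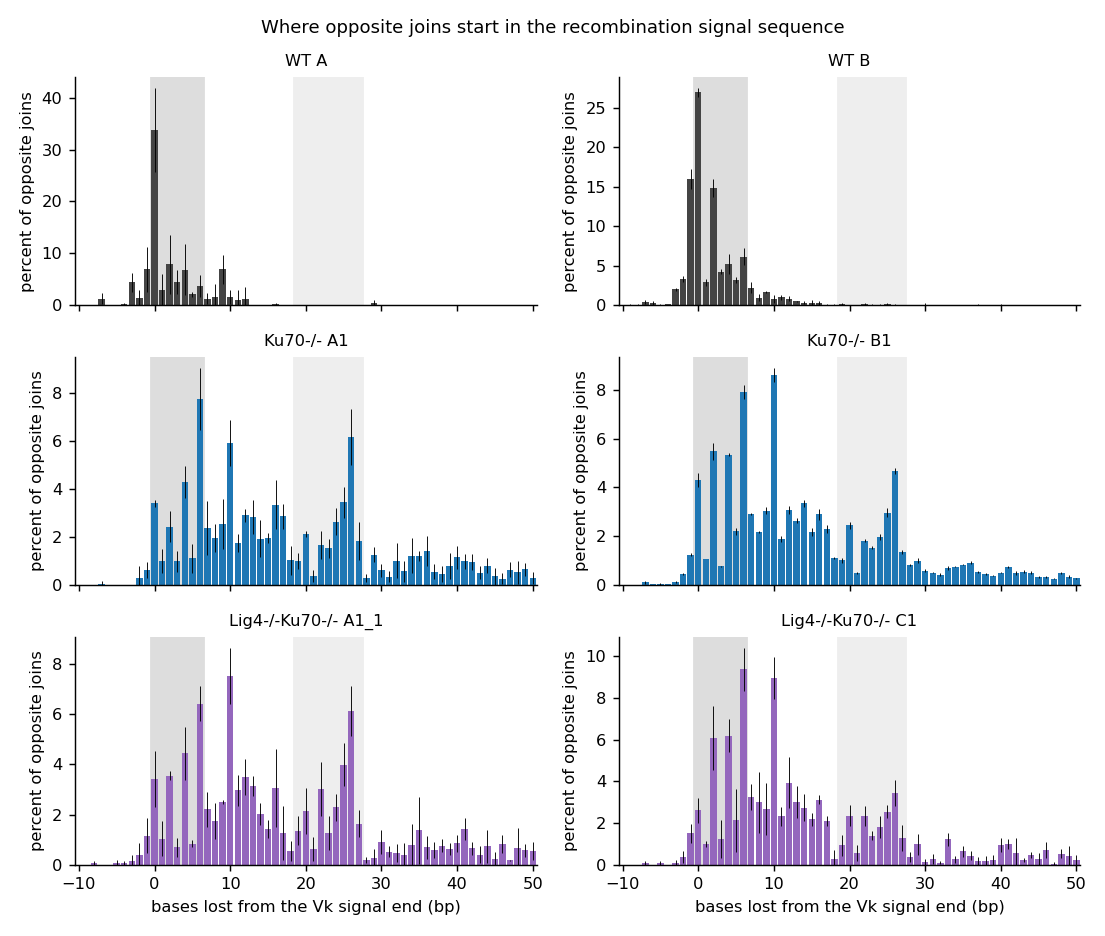
Percent of opposite joins by the number of bases lost from the Vk signal end, as the mean of 3 libraries with SD, for WT, Ku70-/- and Lig4-/-Ku70-/- groups (vertical scales differ); the darker band is the heptamer and the lighter band the nonamer of a signal sequence with a 12-bp spacer, and negative values lie on the coding side. WT B joins crowd at 0 bp (26.98%), and Ku70-/- B1 joins spread with peaks at 6, 10 and 26 bp.

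Measured from the usual joining position instead, 22.8%, 24.2% and 21.0% of opposite joins in Ku70-/- A1 and 32.2%, 31.7% and 31.9% in B1 lay within 10 bp. In WT A the values were 89.8%, 56.4% and 80.6%, and in WT B 84.1%, 89.7% and 86.6%. The share fell by 53.9 points over both lineages (exact permutation p = 0.005, adjusted p = 0.02125), with no overlap. The differences were -59.7 and -32.2 points within the 2 shared runs of lineage A. The low value of 56.4% is WT A replicate 2, in which the recurrent join inside Igkv4-57-1 made up 18.6% of opposite joins, against 0% to 1.27% in the other WT libraries. With a limit of 2 bp the difference was -21.6 points (exact permutation p = 0.005). Usual joins lay within 10 bp in 98.4%, 98.8% and 98.6% in WT A and in 98.5% in each WT B library. In Ku70-/- they did so in 39.9%, 42.6% and 42.9% in A1 and in 50.3%, 49.1% and 49.7% in B1. The fall was thus not particular to opposite joins.

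Long losses were less frequent at signal ends than at Vk coding ends in the same Ku70-/- libraries. A loss of 28 bp or more from the signal end was found in 26.0%, 25.1% and 26.5% of opposite joins in A1 and in 16.3%, 16.4% and 16.2% in B1. The same loss from the Vk coding end was found in 38.5%, 34.3% and 35.7% of usual joins in A1 and in 22.1%, 23.0% and 23.0% in B1. The share in opposite joins was lower in 6 of 6 libraries, by a mean of 8.36 points (fell by 5.77 to 12.6; exact sign-flip p = 0.03125, the smallest possible, adjusted p = 0.0409). The 100-bp limit bounds the signal side but not the coding side, which lies within the annotated segment. With a limit of 20 bp, which removes long signal-end losses by construction, the difference was -29.4 points. The 100-bp limit left out 99 joins in the opposite orientation in A1, beside 4399 kept, and 809 in B1, beside 50990 kept.

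The Jk1 end was trimmed in nearly every opposite join without Ku70. More than 5 bp were lost from it in 92.4%, 91.1% and 92.0% of opposite joins in Ku70-/- A1 and in 89.2%, 89.0% and 88.8% in B1. In WT A this was 4.08%, 19.9% and 4.71%, where the middle value is again replicate 2, and in WT B it was 7.60%, 6.29% and 6.24%. The share rose by 82.3 points, with no overlap in either lineage (exact permutation p = 0.005, adjusted p = 0.02125), and by 71.2 and 87.3 points within the 2 shared runs of lineage A. For losses over 20 bp it rose by 41.0 points (exact permutation p = 0.005). Usual joins changed in the same direction. They lost more than 5 bp in 1.32%, 1.72% and 2.08% in WT A and 1.35%, 1.24% and 1.28% in WT B. In Ku70-/- they did so in 81.6%, 83.3% and 84.0% in A1 and 81.3%, 81.8% and 81.7% in B1. Within Ku70-/- libraries the share was 8.16 points higher in opposite than in usual joins, in 6 of 6 libraries (7.08 to 10.8; exact sign-flip p = 0.03125, adjusted p = 0.0409). It was 3.88 points with each distinct join counted once and 4.19 points within 20 bp of a segment. The most frequent loss was 16 bp in both, at 10.4% ± 0.145 of opposite and 9.21% ± 0.151 of usual joins in B1. The 16-bp loss leaves the bait ending in the bases ggtgcc, as in the Igkv8-16 join printed above.

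The most frequent pairs of ends took larger shares of opposite joins in WT than in Ku70-/-. Over the 6 WT libraries, 12.9% ± 6.64 of opposite joins had the intact Jk1 end and the intact heptamer with a median of 2 inserted bases, at 64 segments. A further 7.97% ± 3.77 joined both intact ends directly and showed a bait alignment 7 bp past the coding end, at 69 segments (SD over 6 libraries). In Ku70-/- the most frequent pair, 6 bp from the signal end and 5 bp from Jk1, made up 1.28% ± 0.283. Pairs that joined a 16-bp loss of Jk1 to a 10-bp, 6-bp or 26-bp loss of signal end made up 1.11% ± 0.306, 1.05% ± 0.259 and 1.05% ± 0.229, each found in all 6 libraries.

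Inserted bases were nearly absent without Ku70. They were present in 61.2%, 62.2% and 51.8% of opposite joins in WT A and in 40.1%, 38.6% and 39.0% in WT B. In Ku70-/- A1 they were present in 1.26%, 0.350% and 1.45%, and in B1 in 1.32%, 1.59% and 1.41%. The share fell by 47.6 points with no overlap (exact permutation p = 0.005, adjusted p = 0.02125), with differences of -61.8 and -50.4 points within the 2 shared runs of lineage A. Where bases were inserted, the median was 3 bp in WT A, 2 bp in WT B, 2 bp in Ku70-/- A1 and 3 bp in Ku70-/- B1. Usual joins fell in the same direction. They held insertions in 62.4%, 61.5% and 61.9% in WT A and 43.1%, 42.8% and 42.8% in WT B. In Ku70-/- the values were 1.80%, 1.02% and 1.68% in A1 and 2.12%, 2.29% and 1.97% in B1. The usual joins of the same Ku70-/- libraries held insertions slightly more often, and opposite joins were lower in 6 of 6 libraries (fell by 0.583 points, and by 1.72 points with each distinct join counted once; exact sign-flip p = 0.03125, adjusted p = 0.0409).

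Microhomology, an overlap of 2 bp or more between the aligned ends, was found in 24.5%, 32.1% and 21.5% of WT A opposite joins and in 38.9%, 43.4% and 41.2% of WT B. It was found in 19.5%, 21.6% and 19.1% in Ku70-/- A1 and in 18.9%, 19.3% and 19.0% in B1. The mean fell by 14.02 points (exact permutation p = 0.01, adjusted p = 0.034), and by 5.90 points in lineage A, where the groups overlapped, against 22.1 points in lineage B. Within the 2 shared runs of lineage A it was -10.4 and -2.33 points. This difference turned with the definition. With an overlap of 1 bp or more it was 6.88 points in the other direction (exact permutation p = 0.095). With the bait cut at the coding end, so that the heptamer shared by Jk1 and the Vk segment no longer counted, it fell by 2.62 points (exact permutation p = 0.49). Overlaps of 7 bp or more made up 15.4% ± 3.34 of opposite joins in WT and 1.10% ± 0.263 in Ku70-/- (SD, n = 6 each). Overlaps of 2 to 3 bp nearly always fitted both ends exactly, with a mismatch to either consensus in 0.801% of 8119 joins in Ku70-/-. Of the overlaps of 7 bp or more, 76.0% of 542 had a mismatch in Ku70-/- and 15.1% of 483 in WT, so many of the longest overlaps in Ku70-/- were not exact microhomology. The Jk1 consensus, also past the coding end, was made from WT reads. The WT value is thus in part a check of these reads against themselves, and the difference between the genotypes was not tested.

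Against the usual joins of the same libraries, opposite joins held more microhomology in both genotypes. In WT the usual joins had 0.729%, 0.639% and 0.751% in A and 1.61%, 1.64% and 1.64% in B, and the opposite joins exceeded them by a mean of 32.4 points, in 6 of 6 libraries (20.7 to 41.8; exact sign-flip p = 0.03125, adjusted p = 0.0409). With the bait cut at the coding end the excess in WT was 20.9 points (exact sign-flip p = 0.03125). In Ku70-/- the usual joins had 18.0%, 16.2% and 17.6% in A1 and 16.8%, 17.2% and 16.8% in B1. The opposite joins exceeded these by 2.49 points, in 6 of 6 libraries (1.49 to 5.43; exact sign-flip p = 0.03125, adjusted p = 0.0409), and by 1.48 points with an overlap of 1 bp or more. Overlaps of 2 to 3 bp made up 14.9% of these opposite joins and 14.1% of the usual ones. Those of 4 to 6 bp made up 3.545% and 2.768%, and those of 7 bp or more 1.10% and 0.235%. Mismatches in the overlaps were counted in opposite joins only, so an excess of exact microhomology was not shown. In Lig4-/-Ku70-/- the excess was 3.68 points, in 6 of 6 libraries (0.446 to 8.09; exact sign-flip p = 0.03125, adjusted p = 0.0409). It was 3.95 points at 20 bp from a segment and 4.84 points with an overlap of 1 bp or more, where the exact sign-flip p was 0.0625 in both. Between Lig4-/-Ku70-/- A1_1 and Ku70-/- A1 the microhomology share of opposite joins differed by 2.42 points with overlap (exact permutation p = 0.2, adjusted p = 0.243).

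**Figure D3:**
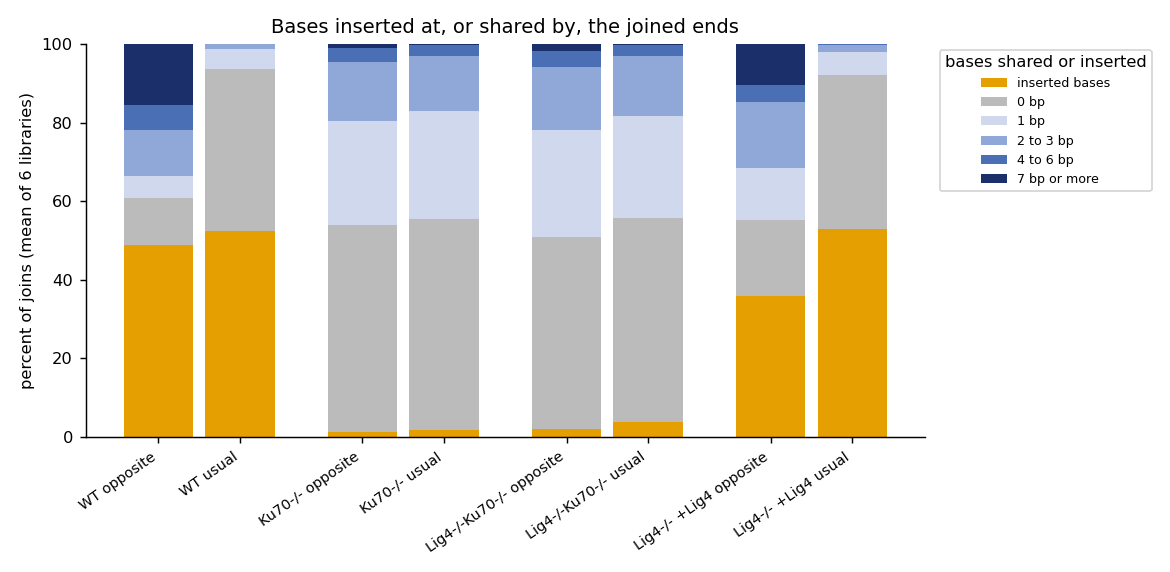
Stacked percent of joins by the bases inserted at the junction or shared by both ends, for opposite and usual joins, as the mean of 6 libraries per genotype. Insertions take 48.8% of opposite joins in WT and 1.23% in Ku70-/-, and overlaps of 7 bp or more take 15.4% and 1.10%.

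Segments whose usual join is inversional had a higher share of opposite joins without Ku70 than segments whose usual join is deletional. The bait runs toward lower coordinates, so a prey on the same strand is a deletional product and a prey on the other strand an inversional one. By this measure 73 segments were inversional and 50 deletional in WT, and an opposite join at an inversional segment is deletional. In Ku70-/- A1 the opposite share was 42.9%, 33.7% and 37.9% at inversional segments against 20.1%, 9.39% and 11.4% at deletional segments. In B1 it was 35.1%, 35.5% and 36.6% against 20.7%, 21.2% and 21.0%. The inversional segments were higher by a mean of 19.7 points, in 6 of 6 libraries (14.4 to 26.5; exact sign-flip p = 0.03125, adjusted p = 0.0409). In Lig4-/-Ku70-/- the shares were 50.52%, 42.6% and 46.1% against 18.6%, 16.3% and 17.5% in A1_1, and 38.6%, 41.9% and 33.2% against 15.5%, 17.1% and 16.2% in C1. The difference there was 25.3 points, in 6 of 6 libraries (17.02 to 31.9; exact sign-flip p = 0.03125, adjusted p = 0.0409). The direction was not seen only without Ku70. With Lig4 added back, clone A1 gave 2.46%, 3.45% and 4.69% against 0.819%, 1.27% and 1.90%. Clone C gave 0.416%, 0.400% and 0.346% against 0.247%, 0.188% and 0.234%. WT B gave 0.343%, 0.313% and 0.325% against 0.233%, 0.237% and 0.221%. WT A gave 0.205%, 0.379% and 0.430% against 0.216%, 0.179% and 0.245%, with replicate 1 in the other direction. These groups were not tested.

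**Figure D4:**
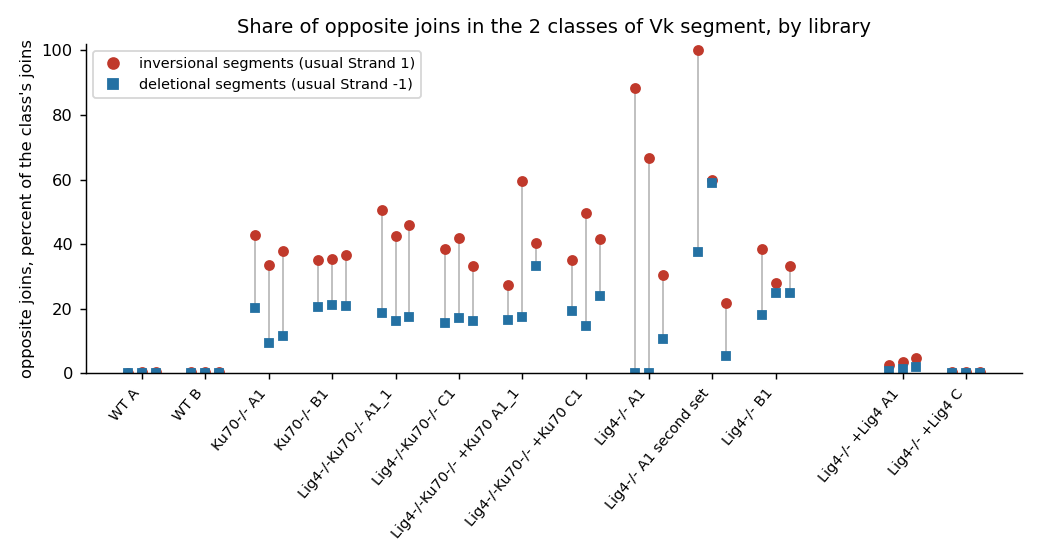
Opposite joins as a percent of all joins at inversional (circles) and deletional (squares) Vk segments, for each library with 10 or more opposite joins; a grey line joins the values of a library. In the 6 Ku70-/- libraries circles lie between 33.7% and 42.9% and squares between 9.39% and 21.2%.

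Single segments differed widely within Ku70-/- cells. Over the 46 segments with at least 20 joins in each of the 6 libraries, the mean opposite share ran from 10.5% to 73.4% with a median of 33.5%. This limit counts joins of both orientations, so a segment with few usual joins can pass it through its opposite ones. The 36 inversional segments had a median of 35.7% and the 10 deletional ones 16.9%, and 4 segments, all inversional, were above 50% in the mean of both clones. Among these 4, Igkv9-124 was above 50% in A1 only, with means of 76.1% in A1 and 29.5% in B1. Igkv4-78, Igkv8-16 and Igkv8-23-1 had means above 50% in each clone. Across the 46 segments the means of A1 and B1 gave r = 0.726 (Spearman 0.646), as a description, since segments share their libraries. The segments named below were chosen by rank. Igkv8-23-1 was highest, with 88.0%, 81.6% and 73.3% in A1 and 71.5%, 61.4% and 64.8% in B1. Igkv8-16 followed with 75.9%, 75.6% and 85.3% in A1 and 58.3%, 59.1% and 53.6% in B1. In A1 the opposite joins were 22, 31 and 33 of 25, 38 and 45 at Igkv8-23-1. At Igkv8-16 they were 44, 34 and 64 of 58, 45 and 75. Both segments passed the limit in A1 only with opposite joins counted, so the top of this ranking depends in part on the limit. At these 2 segments opposite joins outnumbered the usual ones in every Ku70-/- library, while in WT B Igkv8-16 gave 1.86%, 1.09% and 0.724%, and 0 of 167, 0 of 52 and 0 of 138 joins in WT A. Igkv3-10, a deletional segment, was lowest, with 13.8%, 2.12% and 6.31% in A1 and 13.9%, 14.2% and 12.4% in B1. Igkv11-125, also deletional, differed between the clones, with 1.82%, 2.42% and 7.203% in A1 and 23.4%, 23.9% and 20.1% in B1.

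**Figure D5:**
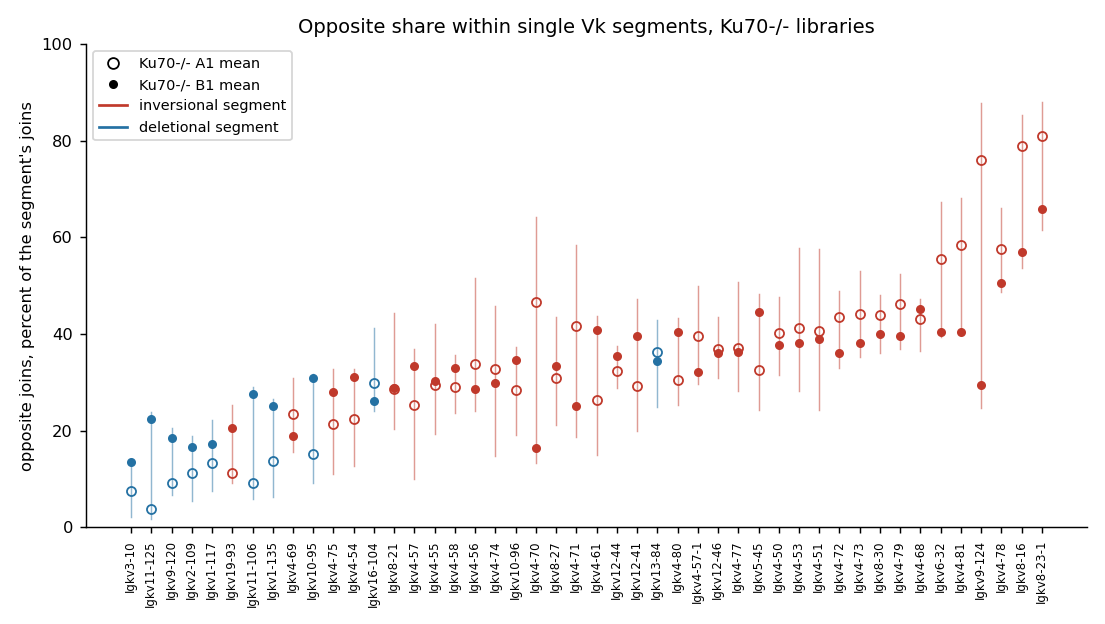
Opposite joins as a percent of all joins at each of 46 Vk segments in Ku70-/- cells, ordered by the mean of both clones; open and filled circles are the A1 and B1 means, and lines span the lowest to the highest of 6 libraries. Deletional segments (blue) gather at the left, and Igkv8-16 and Igkv8-23-1 stand at the right with means of 68.0% and 73.4%.

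By contribution, Igkv6-32 had the highest mean over libraries in WT, Ku70-/- and Lig4-/-Ku70-/-. It made up 6.63% ± 4.35 of opposite joins in WT, 7.40% ± 2.13 in Ku70-/- and 14.8% ± 5.64 in Lig4-/-Ku70-/- (SD over 6 libraries), against 2.79%, 3.33% and 4.21% of the usual joins. Its own opposite share was 67.3%, 49.3% and 50.2% in Ku70-/- A1 and 40.8%, 40.9% and 39.5% in B1. In Lig4-/-Ku70-/- it was 80.0%, 81.9% and 71.8% in A1_1 and 59.5%, 62.6% and 45.7% in C1. Igkv12-44 came next in Ku70-/-, with 4.51% ± 1.13 of opposite and 3.67% of usual joins, followed by Igkv8-30, Igkv4-81 and Igkv4-50 at 3.78%, 3.59% and 3.46%. The lead in WT rests on WT A replicates 2 and 3, where Igkv6-32 had 11.5% and 12.6% of opposite joins. Igkv4-51 had more reads in WT in all (184 against 161) and was above Igkv6-32 in 4 of 6 WT libraries, with a mean of 5.74% ± 2.85. Igkv4-58 followed at 4.78% ± 3.30, then Igkv4-57-1 at 4.52% ± 7.25 and Igkv3-2 at 3.42% ± 3.49. At Igkv4-57-1, 29 of the 50 reads of its recurrent join lay in WT A replicate 2. At Igkv3-2, a deletional segment, 70.2% of the 47 WT opposite joins lost exactly 9 bp of the signal end. Igkv8-16 and Igkv8-23-1 were among the first 5 in Lig4-/-Ku70-/-, with 6.08% ± 1.32 and 4.06% ± 4.04. Igkv12-46 was among the first 5 in +Lig4 cells, with 3.68% ± 3.23.

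Segments were also set side by side by their signal sequence. Igkv6-32, Igkv8-16, Igkv8-23-1 and Igkv8-30 carried the same spacer and the same nonamer, ACACAAACC, which Igkv8-21 also had. Of the 101 located signal sequences, 12 had this nonamer, and 5 of these lay beside inversional segments among the 46 above. Over those 5 the median opposite share in Ku70-/- was 48.0% (28.7% to 73.4%), and the other carriers were not compared. Among the same 46, the 22 inversional segments with the nonamer ACAAAAACC had a median of 33.5% (15.97% to 54.0%), and the 5 with ACATAAACC 34.4% (31.5% to 52.8%). In all, 36 and 26 of the located signal sequences had these nonamers. Igkv4-78 (54.0%) and Igkv4-81 (49.4%) carried ACAAAAACC, and Igkv8-27, with the same spacer as Igkv6-32 but that nonamer, had 32.1%. The ranges overlap, related segments share the rest of their sequence too, and the grouping was made after the shares were seen. The signal-end loss differed between the named segments in WT. At Igkv6-32 the median loss was 0 bp in 161 WT joins and 10 bp in 3219 Ku70-/- joins, and the heptamer was kept in 52.2% and 3.48%. At Igkv4-50 the median was 0 bp in 54 WT joins and 17 bp in 1582 Ku70-/- joins. Igkv4-51 had medians of 3 bp and 10 bp, with the heptamer kept in 22.3% and 9.45%. Igkv8-30 had medians of 4 bp and 10 bp, with the heptamer kept in 33.3% of 27 WT joins and 4.12% in Ku70-/-. Igkv3-2 kept it in only 4.26% of 47 WT joins (median 9 bp) and in none of 23 Ku70-/- joins (median 25 bp). Those 23 were 8, 7 and 8 reads in the A1 libraries, and B1 held 1 join at this segment, in the usual orientation. The 47 were 3, 11 and 16 reads in WT A and 5, 9 and 3 in WT B.

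The Lig4-/- libraries held 161 opposite joins at 33 segments, of 66 distinct kinds. Identical joins took a large part, since 7 joins found in 2 or more Lig4-/- libraries accounted for 81 of the 161. Of these 7, 5 (65 rows) were found only in clone A1 and its second set, and 3 occurred in 2 or more libraries of the same run. Repeated joining, shared cells and carry-over between these libraries cannot be told apart. Of the 161, 28 (17.4%) were identical to a join in a library of another genotype sequenced in the same run, and whether these were carried over between libraries was not tested. The 2 most frequent are shown because they recur, with the overlapping bases in capitals.
Lig4-/-, Igkv19-93: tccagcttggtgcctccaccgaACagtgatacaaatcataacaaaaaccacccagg
Lig4-/-, Igkv6-32: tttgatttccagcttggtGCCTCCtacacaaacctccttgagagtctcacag
The Igkv19-93 join was read 23 times in 6 libraries, with 1 bp of signal end and 6 bp of Jk1 lost and a 2-bp overlap. The Igkv6-32 join was read 14 times in 7 libraries, with a 6-bp overlap 12 bp into the signal end, and it also occurred in 9 libraries of other genotypes. By segment, Igkv6-32 had 29 of the reads, Igkv19-93 had 23, Igkv9-123 had 13, and Igkv8-21 and Igkv3-4 had 11 each. Igkv4-72 had 9, Igkv12-44 had 8, Igkv1-135 and Igkv1-117 had 7 each, and each of the other 24 segments had at most 4.

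Microhomology was frequent in these joins. It was present in 73.3%, 45.8% and 94.1% of opposite joins in clone A1, 100%, 63.2% and 90.9% in its second set and 71.4%, 42.9% and 64.7% in clone B1. The usual joins of the same libraries had 60.0%, 38.5% and 24.6%, then 60.0%, 38.5% and 46.3%, and then 50.0%, 39.5% and 43.9%. Opposite joins were above the usual ones in all 9 libraries, but each library held only 11 to 30 reads of opposite joins and no test was made. Distinct opposite joins numbered only 7, 9 and 6 in clone A1 and 4, 7 and 7 in its second set. A single join made up 43.3%, 25.0% and 35.3% of the opposite reads in clone A1. In the second set it made up 36.4%, 26.3% and 27.3%. The usual joins numbered 75 and 72 over the 3 libraries of each set. In clone B1 27 of 45 opposite joins had microhomology, which is 60.0% (exact 95% interval 44.3% to 74.3%), with 40 of the 45 distinct. The heptamer was kept in 4 of those 45 joins.

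With Lig4 added back, the ends of opposite joins differed between the clones. In clone C the heptamer was kept in 48.0%, 56.5% and 53.2% of opposite joins, and in clone A1 in 25.9%, 21.6% and 21.1%. Over 5 bp of Jk1 was lost in 17.5%, 17.4% and 12.7% in clone C and in 34.8%, 31.4% and 39.3% in clone A1. Insertions were present in 46.8%, 33.3% and 35.4% in clone C and in 31.2%, 35.5% and 33.0% in clone A1. The clones did not overlap in the heptamer or in the Jk1 loss, they were sequenced in separate runs, and clone and run cannot be told apart here. Opposite joins in these libraries were mostly distinct, from 89.2% to 94.2% of rows.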

How the data were processed

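Junction lists of 42 libraries were used as the authors deposited them, with 1 row per read giving prey position and strand, bait end and read positions (values of no fixed unit, other than counts). Per the submitters' processing notes, Bowtie2 and build mm10 were used; versions and filters are not given in the sources used here. Per the labels, each set was normalised to a stated number of raw reads, so opposite joins are given as shares of joins. Members, segment lists and tests were chosen with earlier results of these data known, and 7 of the 17 tests were added after seeing the data.

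Segments came from RefSeq (GRCm38.p6). Signal sequences were located in the consensus of deposited reads, requiring 5 of 7 heptamer and 7 of 9 nonamer matches, since no genome was used. Shares of libraries with 10 or more opposite joins were compared by two-sided exact permutation within lineages, or exact sign-flip within libraries, with Benjamini-Hochberg adjustment over 17 tests (Python 3.11.15, numpy 2.4.6, pandas 2.3.3, scipy 1.17.1). The procedure was tested on simulated data. Named segments were the 5 with the highest mean share of opposite joins in WT, Ku70-/-, Lig4-/-Ku70-/- and +Lig4, and those with an opposite join in Lig4-/-, with sequences for 6 of them. The highest and lowest shares per segment were named after their values were seen.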

Additional observations from a re-analysis of the deposited data

Results flagged for a closer look

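Rows over 100 bp from any Igkv segment are outside the values above, and they were more frequent without Ku70 than in WT. They made up 0.646% of rows in Ku70-/- A1 against 0.00385% in WT A, and 0.477% in Ku70-/- B1 against 0.00313% in WT B (means of 3 libraries), and each Ku70-/- library was above each WT library of its lineage. All 99 such rows in A1 and 809 of 817 in B1 had the opposite orientation and lay on the signal side of the segment, at a median distance of 129 bp in both clones. The longest distances were 188 bp and 245 bp. In WT A 4 of 6 and in WT B 21 of 28 were of this kind. Usual joins that lose bases end inside the annotated segment, so they stay within the limit. The orientation and side of the rows over 100 bp therefore follow largely from how distance was measured. Joins over 100 bp away are outside the shares and losses given above, and whether they share their source with the nearer ones was not tested.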

How the results depend on the processing

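The 17 tested differences were recomputed in 109 alternatives, and 105 kept direction and side of the threshold. With microhomology of at least 1 bp, the difference between Ku70-/- and WT turned to 6.88 points (exact permutation p = 0.095). With the bait limited to the Jk1 coding end it was -2.62 points (exact permutation p = 0.49), an alternative chosen after seeing the data, as was leaving out each library's most frequent opposite join. The within-library excess in Lig4-/-Ku70-/- was 3.95 points at 20 bp and 4.84 points at 1 bp of overlap (exact p = 0.0625 each).

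Leaving out 1 library gave 138 fits, none reversed. The 48 that no longer passed were sign-flip tests of 5 libraries, whose smallest p is 0.0625, so they say nothing about stability. The shares of cells without both genes moved to between 3.44 and 8.96 points above Ku70-/-, and those with Ku70 added back to between 0.206 and 5.35 above those without. The microhomology and heptamer differences between Lig4-/-Ku70-/- A1_1 and Ku70-/- A1 moved to between 1.64 and 3.79 and between 0.0917 and 1.53 points. The sign-flip ranges were 1.90 to 2.69 (microhomology, Ku70-/-), -0.654 to -0.539 (insertions), 30.6 to 34.8 (microhomology, WT), 18.3 to 20.7 and 23.95 to 26.9 (segment classes, Ku70-/- and Lig4-/-Ku70-/-), 7.63 to 8.38 (Jk1 loss), -8.87 to -7.51 (28 bp or more) and 2.80 to 4.33 (microhomology, Lig4-/-Ku70-/-).

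In lineage A the replicate number marks a shared sequencing run for the Ku70-/-, Lig4-/-Ku70-/-, +Ku70 and Lig4-/- groups, by read names, and the values within runs stand beside the results. The labels do not tie the numbers to a shared culture, and correlations of same-numbered libraries over segments ran from -0.123 to 0.243, so the numbers were not taken as pairs. With the replicate number as a block the 9 two-group results kept their side, for example -53.9 points within 10 bp (exact sign-flip p = 0.03125).

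Group shares with each distinct join counted once were 0.693% (WT A), 2.19% (WT B), 36.6% (Ku70-/- B1), 30.8% (Lig4-/- B1), 5.06% (+Lig4 A1) and 0.966% (+Lig4 C). At 20 bp they were 19.2% and 22.1% in Ku70-/- A1 and B1, 24.05% and 23.8% in Lig4-/-Ku70-/- A1_1 and C1, 25.4% and 27.3% with Ku70 added back, and 17.1% in Lig4-/- B1. Lig4-/- libraries, with at most 74 joins, limit every statement on that genotype.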
